A study of Homo sapiens with 148 samples.

Results

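The genes described here encode ligands of the Nodal and activin pathway, the receptor proteins that bind them and the inhibitors that hold them in check. They were chosen by name: NODAL, GDF3 and INHBA (ligands), TDGF1 and ACVR2B (co-receptor and receptor), LEFTY1, LEFTY2, CER1 and FST (secreted inhibitors) and SMAD7 (an inhibitor inside the cell). All 10 names were found in the table of mean expression, each with 1 entry, among 49085 gene names.

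The samples were H9 cells, an established line of human embryonic stem cells (hESCs), and cells derived from them by stepwise culture toward the pancreas. All were wild type. The stages were undifferentiated hESCs, definitive endoderm (DE, day 4), primitive gut tube-like cells (PGT, day 7), pancreatic progenitors (PP, day 14), a stage named PH for which the sources used here give neither a definition nor a day, and SC-β organoids (day 35), clusters that contain β-like cells. RNA-seq was performed on 2 replicates at each stage, 12 of the 148 samples of the study, and the other assays are not analysed here. Every derived stage comes from this H9 line, so the values describe 1 cell line. By the study's methods, the cultures received Activin A, a dimer of the INHBA product that signals through the same receptors as NODAL, on days 1 and 2. They received LDN193189, an inhibitor of BMP type I receptors, on day 7, and Alk5i II, an inhibitor of the TGF-β type I receptor, from day 14 to day 35. Other agents were also given and are not all listed here, among them CHIR99021 together with Activin A on day 1. The agents changed with the stage, so a difference between stages and a difference between culture media cannot be told apart.

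Nodal is a secreted ligand of the TGF-β family. It binds activin receptors together with a co-receptor of the EGF-CFC family, SMAD2 and SMAD3 are phosphorylated, and these proteins enter the nucleus with SMAD4 and with partners such as FOXH1. Among the genes they switch on are NODAL itself and its inhibitors LEFTY1 and LEFTY2, so that the pathway both amplifies and limits its own activity. In the embryo this signaling maintains pluripotent cells and specifies mesoderm and endoderm, and later it is used in left-right patterning.

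Expression is given as TPM, a unit in which read numbers are corrected for transcript length and each sample has the same total, so that levels of different genes can be set side by side. Each value is the authors' mean of the replicates of a stage. The table holds no value of a single replicate, so no spread, test or read depth stands behind any number, and whether neighboring stages differ beyond replicate error cannot be given. Ratios between stages are log2 ratios after adding 1 TPM to each mean, which understates the change of genes at low levels, and a gene was counted as higher or lower from 2-fold on that scale. PH stands between PP and SC-β organoids in the table and is counted among the 4 stages from PGT on. Because TPM values share a fixed total, ratios were also computed after rescaling, in which the values of a stage were divided by the median of their ratios to the geometric mean over stages, taken over the 13938 genes that reached 1 TPM at all 6 stages. In these bulk samples, fewer cells of a type and less RNA per cell cannot be told apart.

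The stage labels were compared with marker genes. The pluripotency gene POU5F1 was at 1449 TPM in hESCs and 417.2 in DE, and the 3 DE markers (SOX17, FOXA2 and CXCR4) summed to 11.6 TPM in hESCs and 485.9 in DE. The 3 gut tube markers had their highest sum, 136.6 TPM, in PGT. The 3 pancreatic progenitor markers (PDX1, NKX6-1 and PTF1A) summed to 6.40 TPM in PP, 7.88 in PH and 6.96 in SC-β organoids. This sum did not single out PP, and the markers differed among themselves. PDX1 was highest in PP, at 3.17 TPM, against 0.0173 in PH and 1.57 in SC-β organoids. NKX6-1 was highest in SC-β organoids, at 5.37 TPM, and PTF1A was highest in PH, at 7.61 TPM. The 4 endocrine markers (INS, GCG, CHGA and SST) summed to 286.7 TPM in PP and 4099 in SC-β organoids. Most of the sum in PP was CHGA, at 215.1 TPM, with INS at 6.93. Most of the sum in SC-β organoids was GCG, at 2793 TPM, with INS at 298.1. In PH, the 6 neural markers reached 644.3 TPM, against 4.00 to 68.7 in the other stages. A few structural RNAs made up between 31.8% and 50.9% of the TPM total of a stage, with the highest share in PH.

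The 250 bases before the annotated start of NODAL, CER1 and GDF3 are printed because NODAL and GDF3 were highest in hESCs, CER1 was highest in DE, and all 3 were low from PGT on. The sequences are from RefSeq on GRCh38.p14, read 5′ to 3′ along the gene, and all 3 genes lie on the reverse strand. Capitals mark CAGAC, the short element bound by SMAD proteins. The NODAL sequence is chr10:70441682-70441931, the CER1 sequence is chr9:14722734-14722983 and the GDF3 sequence is chr12:7695776-7696025. The RefSeq start of NODAL used here lies inside the gene as GENCODE places it, from 70431936 to 70447951, so its window is upstream of that start and not of the whole GENCODE gene.
NODAL: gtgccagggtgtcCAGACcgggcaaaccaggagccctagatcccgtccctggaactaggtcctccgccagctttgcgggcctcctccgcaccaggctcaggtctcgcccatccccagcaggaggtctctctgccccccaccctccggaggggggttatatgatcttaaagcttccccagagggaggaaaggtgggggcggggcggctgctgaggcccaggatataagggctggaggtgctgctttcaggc
CER1: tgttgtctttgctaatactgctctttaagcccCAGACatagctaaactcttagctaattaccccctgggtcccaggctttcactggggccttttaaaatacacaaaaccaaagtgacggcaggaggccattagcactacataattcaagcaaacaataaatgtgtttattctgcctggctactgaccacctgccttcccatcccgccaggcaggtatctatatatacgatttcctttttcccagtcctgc
GDF3: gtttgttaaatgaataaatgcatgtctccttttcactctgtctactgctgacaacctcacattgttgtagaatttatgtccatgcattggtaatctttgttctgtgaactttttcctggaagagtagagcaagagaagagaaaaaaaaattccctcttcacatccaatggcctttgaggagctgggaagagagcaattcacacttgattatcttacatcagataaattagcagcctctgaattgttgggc

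Both strands of these windows were searched for 4 motifs. CAGAC occurred 1 time before NODAL, 1 time before CER1 and not before GDF3, and 38% of all 35116 promoters of the table hold it. AATCCACA, a FOXH1 motif held by 0.709% of promoters, GTCTAGAC, a SMAD palindrome held by 0.182%, and ATTTGCAT, the octamer motif held by 1.63%, were not found before any of the 7 members with an entry. Among the other members, CAGAC was found before 2 of the 3 annotated starts of SMAD7 and not before INHBA, FST or ACVR2B. A match describes the letters in the window and is no evidence of binding. LEFTY1, LEFTY2 and TDGF1 were not searched.

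Of the 10 genes, 8 had their highest level in hESCs or DE, a pattern shared by 41.3% of the 12849 genes that reached 10 TPM anywhere; after rescaling ACVR2B was highest in PH and 7 genes showed it. In 6 of them, NODAL, GDF3, TDGF1, LEFTY1, LEFTY2 and CER1, each of the 4 stages from PGT on was at least 4-fold below both hESCs and DE on the TPM + 1 scale, as it was for 0.584% of those genes. This second pattern was chosen after the values were seen and is a description. The other 4 genes did not show it: INHBA was highest in SC-β organoids, SMAD7 was highest in PGT, and ACVR2B and FST were highest in DE as deposited but not 4-fold lower in all of the stages from PGT on. The summed level of the 10 genes was 1014 TPM in hESCs, 2313 in DE and 150.5 in PGT, and from 65.4 to 80.4 TPM in PP, PH and SC-β organoids.

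**Figure D1:**
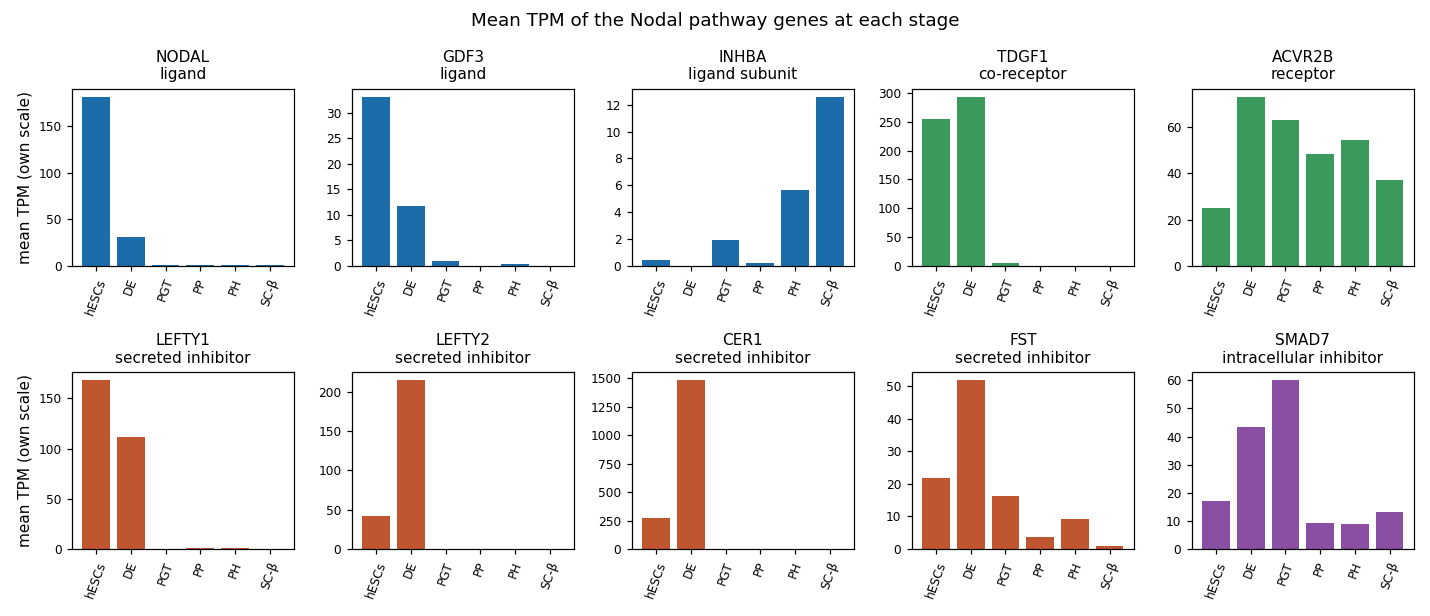
Mean TPM of the 10 genes at each stage, 1 panel per gene, each with its own linear axis from 0; bars are the authors' mean of 2 replicates and have no error bars because the table gives none. NODAL stands at 181.0 TPM in hESCs, CER1 at 1483 TPM in DE, and 6 of the 10 panels are nearly empty from PGT on; rescaling moves the highest bar of TDGF1 from DE to hESCs and that of ACVR2B from DE to PH.

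NODAL (ENSG00000156574.10, GRCh38 chromosome 10, 70431936 to 70447951, reverse strand) is the ligand that gives the pathway its name. It was at 181.0 TPM in hESCs, 31.3 in DE and 0.988 in PGT, and at 0.550 in PP, 0.475 in PH and 1.01 in SC-β organoids. The highest level was thus in undifferentiated cells, before the Activin A step of the differentiation. Which ligands the media of the undifferentiated cells held is not given in the sources used here. The levels from PGT on all lay near 1 TPM or below. The log2 ratio of DE to hESCs was -2.49, or -2.97 after rescaling, and that of PGT to DE was -4.02. Of the 50-base windows of its transcript, 32.4% also occur in an unnamed annotated gene on the opposite strand, and whether the authors' counting used strand is not given in the sources used here, so reads of the pair may not be told apart.

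GDF3 (ENSG00000184344.4, chromosome 12, 7689784 to 7695775, reverse strand) encodes a related ligand, known from pluripotent cells, that also uses EGF-CFC co-receptors. It was at 33.1 TPM in hESCs, 11.8 in DE and 0.890 in PGT, and at 0.0148 in PP, 0.432 in PH and 0 in SC-β organoids. Like NODAL it was highest in hESCs and lower in DE, with a log2 ratio of -1.41, or -1.87 after rescaling. NODAL exceeded GDF3 by 5.46 times in hESCs and 2.65 times in DE, ratios within a stage that no rescaling can move. Across the 6 stages the pair had a Pearson's r of 0.985 on the log2(TPM + 1) scale, a description over stages that share libraries with every other gene here.

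INHBA (ENSG00000122641.11, chromosome 7, 41667168 to 41705834, reverse strand) encodes the βA subunit, which pairs with itself to form activin A. It was at 0.449 TPM in hESCs, 0.0177 in DE and 1.90 in PGT, and at 0.251 in PP, 5.64 in PH and 12.6 in SC-β organoids. The order differed from that of NODAL, since the gene was close to 0 in DE and reached its highest level at the last stage. The log2 ratio of SC-β organoids to PP was 3.44, or 3.21 after rescaling, and that of PH to PP was 2.41, or 2.62. Within the 3 ligand genes, NODAL made up 84.4% of the summed TPM in hESCs and 72.6% in DE, and INHBA made up 86.2% in PH and 92.6% in SC-β organoids. In PGT, where the 3 genes summed to 3.78 TPM, INHBA made up 50.3% and NODAL 26.1%. In PP, NODAL made up 67.4% and INHBA 30.8%, both from levels below 1 TPM. The order of the pair in PGT and PP thus rests on low levels whose spread is not known. The summed level of the 3 genes was 214.6 TPM in hESCs, 43.2 in DE, 0.815 in PP, 6.55 in PH and 13.6 in SC-β organoids. The antisense gene INHBA-AS1, which overlaps it, stayed between 0 and 0.230 TPM.

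INHBA was set beside marker genes of other cell types. The 8 mesenchymal markers, among them COL1A1, COL3A1, PDGFRA and TWIST1, summed to 82.1 TPM in hESCs, 63.4 in DE and 90.8 in PGT, and to 175.4 in PP, 993.8 in PH and 1880 in SC-β organoids. Of the 8, 1 was listed at 0 in hESCs and 1 in DE, and none in the other stages, and all 8 were at least 2-fold higher in SC-β organoids than in PP, beside 20.7% of all genes. The sum was lowest in DE and highest in SC-β organoids, as INHBA was. In PP the sum was above that in hESCs and PGT, and INHBA was below its level in both. Most of the sum in DE was COL1A2, at 46.1 TPM, and single markers differed from the sum. COL3A1, DCN and PRRX1 were lowest in DE. COL1A2 and TWIST1 were lowest in PGT, PDGFRA and LUM in hESCs, and COL1A1 in PP. COL1A1 was highest in PH, and the other markers were highest in SC-β organoids. The 4 endocrine markers were also all higher in SC-β organoids than in PP, and their sum was 286.7 TPM in PP, 169.9 in PH and 4099 in SC-β organoids. The 6 neural markers were all higher in PH than in PP, beside 11.5% of all genes, with sums of 24.4 TPM in PP, 644.3 in PH and 68.7 in SC-β organoids. The part of mesenchymal, endocrine or neural cells in the level of INHBA was not tested.

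**Figure D2:**
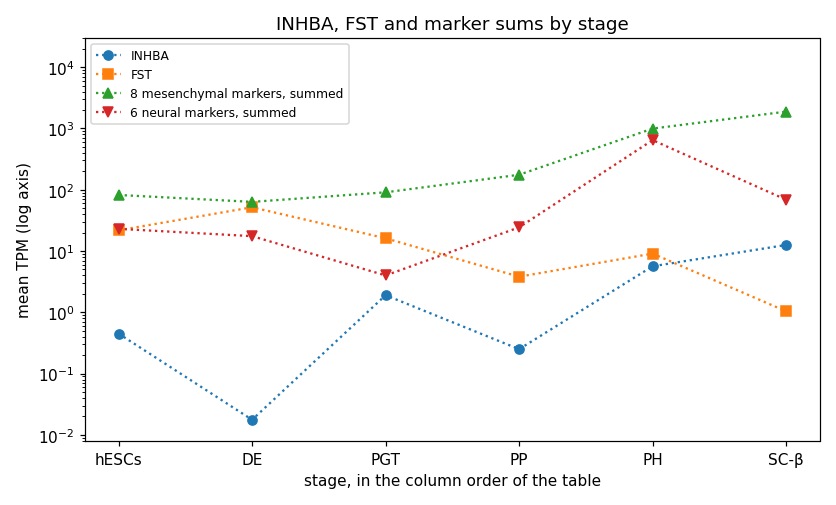
Mean TPM (log axis) of INHBA, of FST and of the summed mesenchymal and neural markers at the 6 stages; each point is an authors' mean or a sum of such means, without error, and the dotted lines only join the stages in the order of the table. INHBA goes from 0.0177 TPM in DE to 12.6 TPM in SC-β organoids and FST from 51.7 to 1.04 TPM, and the mesenchymal sum is highest, at 1880 TPM, in SC-β organoids.

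TDGF1 (ENSG00000241186.10, chromosome 3, 46574534 to 46582457, forward strand), also called CRIPTO, encodes the EGF-CFC co-receptor that NODAL and GDF3 need. It was at 255.5 TPM in hESCs, 292.9 in DE and 5.61 in PGT, and at 0.545 in PP, 0.0201 in PH and 0.396 in SC-β organoids. The levels in hESCs and DE were close, with a log2 ratio of 0.20 that became -0.28 after rescaling, so the order of these stages depends on the scale. From DE to PGT the log2 ratio was -5.47, and from PGT to PP it was -2.10. The co-receptor was 1.41 times as abundant as NODAL in hESCs and 9.35 times in DE. Of its 50-base windows, 38.1% also occur in the processed copy TDGF1P3, so reads could be divided between them. TDGF1P3 was listed at 3.37 TPM in hESCs and 3.16 in DE, which is 1.32% and 1.08% of the level of TDGF1. LRRC2 overlaps TDGF1 on the opposite strand and shares 3.20% of its windows.

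ACVR2B (ENSG00000114739.14, chromosome 3, 38453890 to 38493142, forward strand) encodes an activin type II receptor, which binds NODAL and activins. It was at 24.8 TPM in hESCs, 72.9 in DE and 63.2 in PGT, and at 48.2 in PP, 54.4 in PH and 37.1 in SC-β organoids. Every stage held more than 20 TPM, and hESCs held the least. Only the step from hESCs to DE passed 2-fold, with a log2 ratio of 1.52, or 1.05 after rescaling. After rescaling, the highest level was in PH (64.7) and not in DE (63.1), and the log2 ratio of PH to SC-β organoids went from 0.54 to 1.02. The related receptor gene ACVR2A was at 5.54 TPM in hESCs, 17.8 in DE and 33.9 in PH, so that ACVR2B exceeded it 4.48 times in hESCs and 1.60 times in PH. ACVR2B-AS1, on the opposite strand, was at 1.08 to 3.60 TPM.

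LEFTY1 (ENSG00000243709.1, chromosome 1, 225886282 to 225911382, reverse strand) encodes a secreted protein that binds Nodal and its co-receptor and blocks signaling. It was at 168.1 TPM in hESCs, 111.5 in DE and 0.0641 in PGT, and at 1.11 in PP, 0.645 in PH and 0.337 in SC-β organoids. The gene was thus abundant in the first pair of stages and near 0 in PGT. From hESCs to DE its log2 ratio was -0.59, short of 2-fold, and became -1.07 after rescaling. That of PGT to DE was -6.72.

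LEFTY2 (ENSG00000143768.13, chromosome 1, 225936598 to 225941383, reverse strand) lies 25215 bases from LEFTY1 and encodes a protein of the same function. It was at 42.6 TPM in hESCs, 214.6 in DE and 0.109 in PGT, and at 0.0126 in PP and 0 in both PH and SC-β organoids. Its highest level was in DE, with a log2 ratio to hESCs of 2.31, or 1.83 after rescaling, and the ratio of PGT to DE was -7.60. The pair changed places: LEFTY1 exceeded LEFTY2 by 3.95 times in hESCs, and LEFTY2 exceeded LEFTY1 by 1.92 times in DE. Summed, they stood at 210.7 TPM in hESCs, 326.1 in DE and 0.174 in PGT. The genes are near copies, with 31.3% of the 50-base windows of LEFTY1 found in LEFTY2 and 25.0% of those of LEFTY2 in LEFTY1. A further annotated gene without a name overlaps LEFTY1 on the same strand and shares 52.9% of its windows. How the authors' tool divided such reads is not known, so the level of each LEFTY gene, and the change of order between them, is less certain than their sum.

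CER1 (ENSG00000147869.5, chromosome 9, 14719724 to 14722733, reverse strand) encodes Cerberus, a secreted antagonist of Nodal and BMP ligands that marks anterior endoderm. It was at 269.7 TPM in hESCs, 1483 in DE and 1.63 in PGT, and at 1.58 in PP, 0.737 in PH and 1.58 in SC-β organoids. Its level in DE was the highest that any of the 10 genes reached, and PGT was 3 days later with less than 2 TPM. The log2 ratio of DE to hESCs was 2.45, or 1.97 after rescaling, and that of PGT to DE was -9.14, the lowest ratio of the 10 genes at that step with a pseudocount of 1; with 0.1, LEFTY2 (-10.00) lay below CER1 (-9.75). No 50-base window of its transcript occurs in another annotated gene. CER1 made up 56.1% of the summed TPM of LEFTY1, LEFTY2 and CER1 in hESCs and 82.0% in DE.

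The summed level of the 3 inhibitors and the level of the ligand moved apart between hESCs and DE. Of the 3 inhibitors, LEFTY1 went down, from 168.1 to 111.5 TPM. LEFTY2 went up from 42.6 to 214.6 TPM and CER1 from 269.7 to 1483 TPM. The sum of LEFTY1, LEFTY2 and CER1 was 2.65 times the level of NODAL in hESCs and 57.7 times in DE, because the sum went from 480.4 to 1809 TPM while NODAL went from 181.0 to 31.3 TPM. This ratio is taken within a stage and does not depend on the scale between stages. The level of RNA does not give the level or activity of the secreted proteins.

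FST (ENSG00000134363.12, chromosome 5, 53480626 to 53487134, forward strand) encodes follistatin, which binds activins and keeps them from their receptors. It was at 21.8 TPM in hESCs, 51.7 in DE and 16.2 in PGT, and at 3.81 in PP, 9.08 in PH and 1.04 in SC-β organoids. It was highest in DE and lowest in SC-β organoids. In DE against hESCs its log2 ratio was 1.21, or 0.74 and under 2-fold after rescaling. The ratios of PGT to DE, PP to PGT and SC-β organoids to PP were -1.62, -1.83 and -1.24, and that of PH to PP was 1.07. FST and INHBA changed places: FST exceeded INHBA by 48.5 times in hESCs and 1.61 times in PH, and INHBA exceeded FST by 12.1 times in SC-β organoids.

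SMAD7 (ENSG00000101665.10, chromosome 18, 48919853 to 48950965, reverse strand) encodes an inhibitory SMAD that competes for activated type I receptors. It was at 17.2 TPM in hESCs, 43.3 in DE and 60.0 in PGT, and at 9.31 in PP, 8.97 in PH and 13.3 in SC-β organoids. It was the only one of the 10 genes to be highest in PGT, and it stayed above 8 TPM at all 6 stages. In DE against hESCs its log2 ratio was 1.28, or 0.82 after rescaling, which is short of 2-fold. The ratio of PP to PGT was -2.56, the lowest of the 10 genes at that step with a pseudocount of 1; with 0.1, TDGF1 (-3.15) and GDF3 (-3.11) lay below SMAD7 (-2.68).

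Between hESCs and DE, 5 genes were at least 2-fold higher (ACVR2B, LEFTY2, CER1, FST and SMAD7) and 2 were lower (NODAL and GDF3). Among the 22514 genes that reached 1 TPM in either stage, 28.2% were higher and 5.55% were lower, and the median log2 ratio was 0.58, beside 0.70 for the 10 genes. After rescaling, 3 members were higher and 3 were lower (NODAL, GDF3 and LEFTY1), beside 16.0% and 10.4% of all genes. NODAL, GDF3, LEFTY2, CER1 and ACVR2B kept their direction and stayed at or past 2-fold.

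Between DE and PGT, 7 genes were lower (NODAL, GDF3, TDGF1, LEFTY1, LEFTY2, CER1 and FST), beside 10.6% of all genes, and 1 was higher (INHBA), beside 4.94%. The median log2 ratio of the 10 genes was -3.39, against -0.19 over all 22862 genes compared. The counts were the same after rescaling. The receptor gene ACVR2B and the intracellular inhibitor gene SMAD7 did not pass 2-fold at this step, with log2 ratios of -0.20 and 0.46.

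Between PGT and PP, 4 genes were lower (INHBA, TDGF1, FST and SMAD7), beside 7.46% of all genes, and 0 were higher, beside 6.3%. The log2 ratio of LEFTY1 was 0.99, just inside the limit, and 1.01 after rescaling, which made 1 member higher, at a level of 1.11 TPM in PP. Between PP and SC-β organoids, INHBA was higher, beside 20.7% of all genes, and FST was lower, beside 1.84%. Between PP and PH, INHBA and FST were higher, beside 11.5% of all genes, and 0 genes were lower, beside 12.8%. Both of these comparisons use the same PP column.

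Between SC-β organoids and PH, FST was higher in PH, with a log2 ratio of 2.30, beside 4.6% of all genes, and INHBA was lower, with -1.03, beside 28.1%. After rescaling INHBA was at -0.59, 0 of the 10 genes were lower and 2 were higher (FST and ACVR2B), beside 15.8% and 8.12% of all genes. In the comparisons among PP, PH and SC-β organoids, 6 or 7 of the 10 genes reached 1 TPM in either stage of a comparison.

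**Figure D3:**
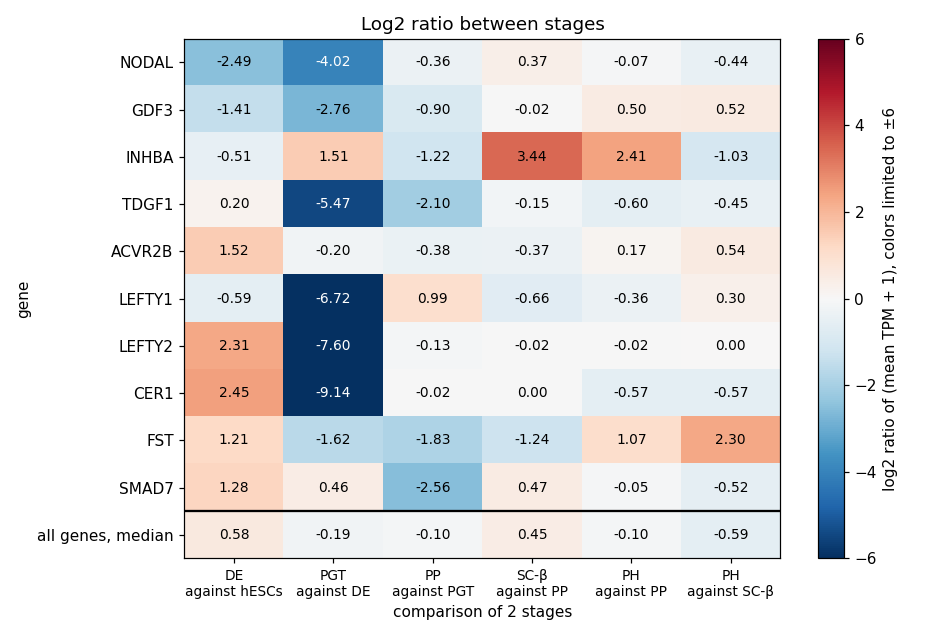
Log2 ratio of (mean TPM + 1) between stages for the 10 genes (rows) in the 6 comparisons (columns), with the median over all genes at 1 TPM or more in either stage in the bottom row; red is higher and blue is lower in the stage named first, and the values have no error. The column of PGT against DE holds the lowest ratios, down to -9.14 for CER1 (with a pseudocount of 0.1, LEFTY2 is lowest, at -10.00), and INHBA has the highest, 3.44, in SC-β organoids against PP; after rescaling the ratio of TDGF1 in DE against hESCs changes sign, and FST and SMAD7 there come under 2-fold.

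A further 38 genes of the pathway, listed by role, were found in the table. Between hESCs and DE, 14 of the 30 that reached 1 TPM were higher and 1 was lower, beside 28.2% and 5.55% of all genes. After rescaling, 5 were higher and 1 was lower, beside 16.0% and 10.4% of all genes. Between DE and PGT, 5 of 30 were higher and 5 lower, with the same counts after rescaling. Between PGT and PP, 2 of 30 were higher and 7 lower, or 2 and 5 after rescaling, beside 6.93% and 6.44% of all genes. Between PP and SC-β organoids, 7 of 32 were higher and 0 lower. These counts became 6 and 1 after rescaling, beside 13.8% and 2.95% of all genes. Between PP and PH, 3 of 31 were higher and 4 lower, or 4 and 4 after rescaling, beside 15.0% and 9.93% of all genes. In PH against SC-β organoids, 1 of 33 was higher and 9 lower, or 2 and 5 after rescaling. The shares of all genes given above for each comparison are the background of these counts.

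Among the other ligands, TGFB2 was at 0.0917 TPM in hESCs, 0.968 in DE and 45.1 in PGT, and at 5.57 in PP, 38.5 in PH and 83.4 in SC-β organoids. Like INHBA it was low through DE, higher in PGT, lower in PP and highest in SC-β organoids. INHBE, which encodes another inhibin β subunit, was at 10.6 TPM in hESCs and at most 1.26 TPM elsewhere. Of the receptors, ACVR1B, the type I receptor for NODAL and activin, was at 5.87 TPM in hESCs and 31.6 in DE, and between 17.1 and 25.8 TPM elsewhere. ACVR1C, the alternative type I receptor, was at most 0.487 TPM at the first 5 stages of the table and at 6.59 TPM in SC-β organoids. ACVR1B and ACVR2B thus had RNA in PP and PH, where NODAL, GDF3 and TDGF1 were below 1 TPM, and ACVR1C did not reach 1 TPM there.

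Of the SMADs and their partners, FOXH1, the DNA-binding partner of SMAD2 and SMAD3 at Nodal targets, was at 21.9 TPM in hESCs, 57.8 in DE and 12.6 in PGT, and at 0.109 in PP, 0.0483 in PH and 0.141 in SC-β organoids. It was still at 12.6 TPM in PGT, where NODAL and both LEFTY genes were at or below 1 TPM, and was near 0 from PP on. SMAD3 was at 6.54 TPM in hESCs, 5.46 in DE and 18.9 in PGT, and SMAD2 was at 75.0 TPM in DE and between 29.4 and 43.8 elsewhere. SMAD6, the other inhibitory SMAD, was at 3.57 TPM in hESCs, 103.7 in DE, 73.6 in PGT and 8.72 in PP, a course like that of SMAD7 but with its highest level in DE. BAMBI, a pseudoreceptor that dampens TGF-β family signaling, was at 53.0 TPM in DE and 390.5 in PGT. FURIN, a protease that cleaves the Nodal precursor, was at 18.9 TPM in hESCs, 47.4 in DE, 46.2 in PGT and 18.3 in PP.

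The 10 mesendoderm genes in the list, which Nodal signaling is known to induce in the embryo, were set beside the members. Between hESCs and DE, 7 were higher (EOMES, GSC, LHX1, HHEX, SOX17, FOXA2 and GATA6) and 0 lower, beside 28.2% and 5.55% of all genes. The median log2 ratio of the 10 was 3.75. After rescaling the counts were the same, beside 16.0% and 10.4% of all genes, and the median was 3.33. EOMES was at 12.5 TPM in hESCs, 172.3 in DE and 0.353 in PGT, and GSC was at 5.46 TPM, 34.6 TPM and 0 in the same stages. Between DE and PGT, 6 were lower, beside 10.6% of all genes, and 1, HHEX, was higher, at 45.0 and 137.3 TPM, beside 4.94%. These genes were thus higher in DE, where NODAL was lower than in hESCs and the culture had received Activin A.

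**Figure D4:**
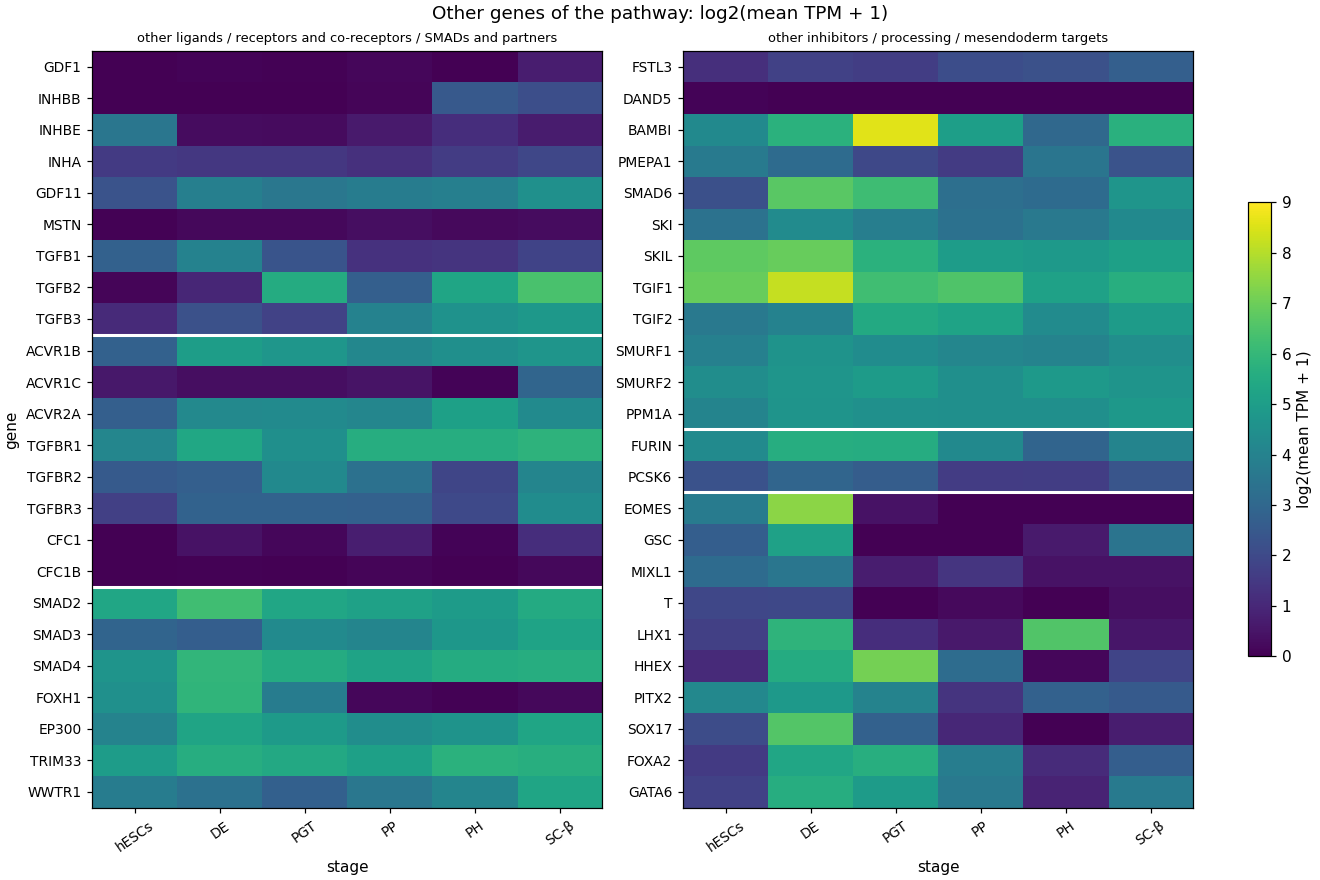
Log2(mean TPM + 1) of 48 other genes of the pathway and its targets (rows, by role and separated by white lines) at the 6 stages (columns), without error. FOXH1 and EOMES are dark from PP on, BAMBI is brightest in PGT at 390.5 TPM, and ACVR1B, SMAD2 and SMAD4 show RNA at all 6 stages.

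The genes most like each member were found by Pearson's r of log2(TPM + 1) over the 6 stages, among the 12849 genes that reached 10 TPM anywhere. With 6 points that share libraries and totals, these values are descriptions. CER1 and LEFTY2 were among each other's 3 most similar genes, with an r of 0.998, and both were also close to CALCR, the calcitonin receptor gene, and LINC00371. CALCR was at 5.56 TPM in hESCs, 13.5 in DE and 0.0544 in PGT. TDGF1 was most like MIR302B, a microRNA gene of pluripotent cells, with an r of 0.999 and levels of 38.5 TPM in hESCs, 39.7 in DE and 2.87 in PGT. INHBA had IFT46 (r of 0.982), PDGFRB (0.979) and ZNF263 (0.979) as its 3 most similar genes. IFT46 was at 11.3 TPM in hESCs and 27.3 in SC-β organoids, and ZNF263 stayed between 16.8 and 20.0 TPM. PDGFRB, a receptor gene of mesenchymal cells, was at 18.8 TPM in PH and 57.8 in SC-β organoids. ACVR2B was most like SALL1, with an r of 0.996, and SALL1 was at 7.67 TPM in hESCs, 75.1 in DE and 16.0 in SC-β organoids. Because r does not depend on the size of the changes, some of the genes found varied little. GEMIN2, the gene most like LEFTY1, stayed between 17.9 and 25.5 TPM. CRKL, the gene most like SMAD7, stayed between 46.6 and 64.6 TPM, and ZCCHC10, the gene most like FST, was at 20.8 TPM in hESCs and 24.0 in DE. FGF13-AS1, the gene most like GDF3, was at 13.5 TPM in hESCs, 9.02 in DE and at most 2.25 elsewhere. The 3 genes most like NODAL carry clone names only.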

How the data were processed

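RNA-seq was analysed in the 12 samples that the labels assign to 6 stages, 2 per stage. The authors aligned reads to hg38 with HISAT2 (version 2.2.0), computed TPM with StringTie (version 2.1.6) and deposited the mean TPM of each stage, per the labels and the study's methods; the annotation is not named in the sources used here. The study's methods name RiboMinus and the labels a TruSeq stranded mRNA kit, and which was used is not settled here. The table holds no value of a single replicate and no read counts, so the depth of each sample is unknown, and no interval, detection floor or test can be given.

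Entries with the same name (231 names) were summed. Log2 ratios used a pseudocount of 1 TPM, and 2-fold was the limit for a count. Background shares were taken over genes at 1 TPM or more in either compared stage. Alternatives were a pseudocount of 0.1, rescaling by median ratios, totals without structural and mitochondrial RNAs, a 4-fold limit, the highest entry per name, and all gene names as denominator. Positions, overlaps and shared 50-base windows came from GENCODE version 44 (GRCh38), and promoters from RefSeq (GRCh38.p14). The calculation was tested on simulated data. Python 3.11.15, numpy 2.4.6, pandas 2.3.3 and matplotlib 3.10.9 were used.

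The members, gene lists and comparisons were chosen with earlier results of these data known. Named genes were every member, listed pathway genes at 2-fold or more in a step that reach 5 TPM, copies, antisense genes and markers that a result turns on, and the 3 genes most like each member; SMAD2 and INHBB were named after their values were seen.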

Additional observations from a re-analysis of the deposited data

How the results depend on the processing

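No test stands behind any result, the spread between replicates is not known, and levels under about 1 TPM weigh little. No paired analysis was possible because the table holds only the mean of the replicates, and leaving out a replicate was not possible for the same reason. Without a test, the alternatives show only how counts and medians move. From hESCs to DE, the 5 higher members became 3 with rescaling and 2 at a 4-fold limit, and the 2 lower members became 1 at 4-fold. From DE to PGT, the 1 higher member became 0 at 4-fold, and the median of -3.39 became -4.22 with a pseudocount of 0.1. From PGT to PP, 0 higher members became 1 with a pseudocount of 0.1, with rescaling and without structural and mitochondrial RNAs; the 4 lower members became 2 at 4-fold, and the median of -0.64 became -1.47 with a pseudocount of 0.1. From PP to SC-β organoids, the 1 lower member became 2 with a pseudocount of 0.1 and 0 at 4-fold. From PP to PH, the 2 higher members became 1 at 4-fold, 0 lower members became 2 with a pseudocount of 0.1, and the median of -0.03 became 0.0803 with rescaling and 0.0763 without structural and mitochondrial RNAs. For PH against SC-β organoids, the 1 higher member became 2 with a pseudocount of 0.1 and with rescaling, and the 1 lower member became 3 with a pseudocount of 0.1 and 0 with rescaling, without structural and mitochondrial RNAs and at 4-fold. The cause of each move was not tested beyond the setting itself. Of the log2 ratios of single members under 3 alternatives, 161 stayed on their side of 2-fold, 15 passed it in the same direction and 4 came under it, and none of those past 2-fold changed sign. Keeping the highest entry changed none of the counts, since each member has 1 entry. With all gene names as denominator, every background share was lower, for example 12.9% in place of 28.2% for genes higher in DE than in hESCs.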

Other observations

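Some mesendoderm genes had RNA again in PH or SC-β organoids, where GDF3, TDGF1 and LEFTY2 were below 1 TPM. At these stages NODAL was at 0.475 and 1.01 TPM, and INHBA was at 5.64 and 12.6 TPM. GSC, a homeobox gene of the organizer region, was listed at 0 in PGT and PP, at 0.583 TPM in PH and at 9.93 TPM in SC-β organoids. LHX1, a LIM homeobox gene, was at 56.8 TPM in DE, 0.525 in PP, 92.1 in PH and 0.461 in SC-β organoids, so its highest level was in PH. In PH, the 6 neural markers also had their highest sum, and the part of neural cells in the level of LHX1 was not tested.

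Other ligand genes of the family differed among themselves. TGFB1 was at 14.7 TPM in DE and at 1.46 to 2.49 TPM in PP, PH and SC-β organoids. INHBB, which encodes the βB subunit of activin B, was named after its values were seen; it was at most 0.0882 TPM through PP, 4.76 TPM in PH and 3.46 TPM in SC-β organoids. In PH, INHBA and INHBB together stood at 10.4 TPM. TGFB3 was at 1.10 TPM in hESCs, 14.8 in PP, 23.2 in PH and 27.1 in SC-β organoids. The SC-β organoids had been cultured with Alk5i II, and the part of that agent in these levels was not tested.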
